A study of Mus musculus with 19 samples.

Results

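The Ndrg family (N-myc downstream regulated genes) has 4 protein-coding members in the mouse, Ndrg1, Ndrg2, Ndrg3 and Ndrg4, and these were followed in single mouse embryos before implantation together with Gm17035, a gene annotated as antisense RNA that lies on the opposite strand inside Ndrg1. The 5 genes were taken by name from the 53379 gene rows of a count table. The set was chosen by the low counts of Ndrg1 in morulae labelled knockout (KO) for Gabpb1, so values that involve the morulae of the Gabpb1 cross are given as a description, with no test. Gm17035 belongs to the set by position and is not a member of the gene family.

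PolyA RNA had been sequenced from 19 mouse embryos, with 1 embryo in each library. Embryos came from in vitro fertilisation between heterozygous mice (Alyref+/- with Alyref+/-, or Gabpb1+/- with Gabpb1+/-) or between wild-type (WT) mice, all labelled B6D2F1, and were kept in the embryo medium KSOM at 37 °C with 5% CO2. All were collected 96 hours after insemination, so that morulae and blastocysts have the same age in culture and differ in the stage they had reached. From the Alyref cross there were 2 morulae labelled KO, 3 other morulae, called non-KO here, and 3 blastocysts of that second kind. From the Gabpb1 cross there were 3 morulae labelled KO, 2 that were not and 3 blastocysts that were not, and 3 blastocysts came from the WT cross. Non-KO embryos are WT or heterozygous for the deletion, and the labels do not separate them. KO status was read by the submitters from missing reads over the deleted region in these same libraries, and no blastocyst was labelled KO. Alyref encodes an adaptor for mRNA export, and Gabpb1 encodes a beta subunit of the transcription factor GABP.

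The libraries held 7.49 to 31.5 M (megacounts) of gene counts, with a median of 13.6 M. Alyref was lower in Alyref KO than in non-KO morulae of its cross, by 2.05 on the log2 scale (standard error, SE, 0.30, edgeR). The label was read from missing reads in these same libraries, so this value is no independent check of it. Counted over the whole gene, Gabpb1 itself was no lower in morulae with the Gabpb1 KO label, at 78.3, 259 and 151 CPM (the count divided by the library's total in megacounts, after TMM scaling of that total between libraries) against 93.8 and 83.3 CPM in the non-KO morulae, so counts per gene do not check that label. Trophectoderm keratins Krt8 and Krt18 were present in every embryo, and Krt8 reached 1211 CPM or more in each blastocyst. Of 12 cumulus cell markers, the cells that surround the oocyte, none passed the filter on low values, their summed level was 0.185 to 5.76 CPM, and Fshr, the receptor for follicle stimulating hormone, had no count in any embryo.

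NDRG proteins have the fold of alpha/beta hydrolases but are not known as active enzymes. NDRG1 is induced by hypoxia and by differentiation, is repressed by MYC proteins, acts in the recycling of membrane receptors through endosomes, and is phosphorylated by the kinase SGK1 and then by GSK3 within tandem repeats near its C-terminus. NDRG2 is repressed by MYC and is abundant in astrocytes and muscle, NDRG3 is stabilised when oxygen is low, and NDRG4 is found mainly in brain and heart. The blastocyst is the stage at which an outer epithelium, the trophectoderm, surrounds a fluid cavity and the inner cell mass.

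In coordinates of GRCm38 (mm10), Ndrg1 (ENSMUSG00000005125.12) lies on the minus strand at chr15:66929321-66969640 with 6593 exon bases. Gm17035 (ENSMUSG00000091479.1) lies on the plus strand at chr15:66929607-66931107 and has 2 exons of 90 and 329 bases. All 419 of its exon bases lie inside exons of Ndrg1, 181 of them in the 3′ UTR and 238 in the end of the coding sequence (GENCODE M21). The piece of Ndrg1 coding sequence that is shared with Gm17035, chr15:66930870-66931107, is shown because reads from it can be counted for either gene. It is written in the direction of Ndrg1 (minus strand), ends at the last codon before the stop, and its capitals mark 3 consecutive units of 30 bases found as the best tandem repeat in this stretch:

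Ndrg1 coding end: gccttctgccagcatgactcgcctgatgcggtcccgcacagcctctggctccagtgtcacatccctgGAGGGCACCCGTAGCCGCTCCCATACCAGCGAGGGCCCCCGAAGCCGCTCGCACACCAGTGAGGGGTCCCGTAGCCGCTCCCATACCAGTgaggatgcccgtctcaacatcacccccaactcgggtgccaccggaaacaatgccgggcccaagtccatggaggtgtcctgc

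The repeat units encode the tandem repeats that NDRG1 is known for. Units 1 and 2 have 25 of 30 bases in common, units 2 and 3 have 25, and units 1 and 3 have 27. Gm17035 therefore covers, on the other strand, the stretch that holds the repeats.

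The other members are at chr14:51905271-51914158 on the minus strand (Ndrg2, ENSMUSG00000004558.15), chr2:156927345-156992056 on the minus strand (Ndrg3, ENSMUSG00000027634.14) and chr8:95676980-95715119 on the plus strand (Ndrg4, ENSMUSG00000036564.17). Their transcripts share only short exact runs with Ndrg1, which bears on whether reads could be assigned to the wrong member. The longest runs, written 5′ to 3′ in the direction of the transcripts, are:

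Ndrg1 and Ndrg2: catgtggatgcccctggc
Ndrg1 and Ndrg3: aagatggcagactgtggagg
Ndrg1 and Ndrg4: tgaggacatgcaggagatcac

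These runs are 18, 20 and 21 bases long, and the longest run among the other pairs was 33 bases, between Ndrg2 and Ndrg4. All are shorter than the first read of a pair, which had 50 bases, but the run of 33 bases is longer than the second read, which had 25 bases. The 5 genes passed the filter on low values (FPKM, a level per exon length and library size, of at least 1 in at least 2 embryos), which kept 18410 genes. Ndrg3 reached an FPKM of 1 in 19 of 19 embryos, Gm17035 in 16 and Ndrg1 in 15. Ndrg4 reached it in 4 embryos and Ndrg2 in 2, so both passed through few embryos.

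Ndrg1 was the member with the widest range in CPM across embryos. In the Alyref KO morulae it was at 29.8 and 10.1 CPM, and in the Alyref cross non-KO morulae at 2.55, 4.13 and 17.9 CPM. The morulae labelled Gabpb1 KO had 9.21, 1.67 and 0.993 CPM, and the non-KO morulae of their cross had 144 and 75.8 CPM. The 2 Gabpb1 cross non-KO morulae thus stood above the 8 other morulae, with no overlap, which describes a group that took part in choosing the set. The share of all genes that separate these morulae in the same way was not counted. Against the Alyref cross non-KO morulae alone, 17.9% of all genes tested were higher in this group without overlap.

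Among blastocysts Ndrg1 was at 146, 347 and 99.7 CPM in the Alyref cross, at 205, 147 and 335 CPM in the Gabpb1 cross and at 158, 461 and 314 CPM in WT embryos. Blastocysts therefore ranged from 99.7 to 461 CPM (median 205) and morulae from 0.993 to 144 CPM (median 9.67). By group mean the order from high to low was WT blastocysts (311 ± 152 CPM, SD, n = 3), Gabpb1 cross blastocysts (229 ± 96.6, n = 3), Alyref cross blastocysts (198 ± 132, n = 3) and Gabpb1 cross non-KO morulae (109.8 ± 48.1, n = 2). Then followed Alyref KO morulae (20.0 ± 13.9 CPM, n = 2), Alyref cross non-KO morulae (8.19 ± 8.43, n = 3) and the morulae labelled Gabpb1 KO (3.96 ± 4.56, n = 3). Neighbours in this order overlapped except between the Gabpb1 cross non-KO morulae and the Alyref KO morulae, where the lowest value of the one (75.8 CPM) was above the highest of the other (29.8 CPM). With 2 embryos in each of these groups this break is only a description, and the share of all genes that show such a break was not counted. Scaled to the ERCC spike-in RNA instead, the mean of the Gabpb1 cross non-KO morulae was 175 CPM.

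**Figure D1:**
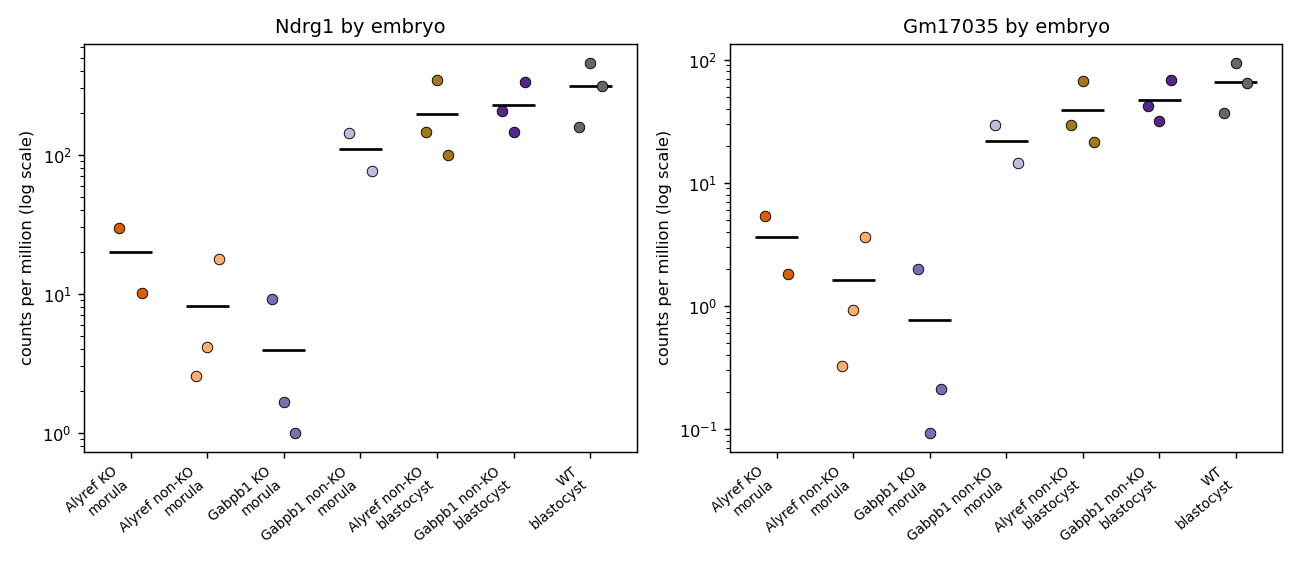
CPM of Ndrg1 (left) and Gm17035 (right) in each of 19 embryos, on log scales, by group; each point is an embryo and each bar the group mean. The 9 blastocysts and the 2 Gabpb1 cross non-KO morulae sit at 75.8 CPM of Ndrg1 or above and the 8 other morulae at 29.8 CPM or below, and Gm17035 falls in the same pattern at lower counts.

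Gm17035 followed Ndrg1 embryo by embryo. It was at 5.41 and 1.80 CPM in Alyref KO morulae, at 0.326, 0.928 and 3.63 CPM in Alyref cross non-KO morulae, at 1.98, 0.0926 and 0.213 CPM in the morulae labelled Gabpb1 KO and at 29.2 and 14.5 CPM in the other morulae of that cross. In blastocysts it was at 29.4, 66.8 and 21.5 CPM (Alyref cross), at 42.2, 31.6 and 67.8 CPM (Gabpb1 cross) and at 36.7, 94.5 and 64.1 CPM (WT). By group mean its order was that of Ndrg1. Again only the Gabpb1 cross non-KO morulae (lowest 14.5 CPM) and the Alyref KO morulae (highest 5.41 CPM) were neighbours without overlap, with the same limits. Pearson's coefficient between both genes was 0.995 over the 19 embryos (log2 of CPM + 1), which describes rows that share exon bases.

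The count of Gm17035 was a near-constant share of that of Ndrg1. In the 13 embryos with 200 or more counts of Ndrg1 it was 18.1% to 23.2% of the Ndrg1 count, with a median of 20.3%. In the 6 others it was 5.56% to 22.4%, and the lowest of these rests on 1 count of Gm17035 beside 18 of Ndrg1 (exact 95% binomial interval 0.141% to 27.3%). Over all 19 embryos the Ndrg1 count ranged from 14 to 7205. The exon bases of Gm17035 are 6.36% of those of Ndrg1, and on the FPKM scale the level of Gm17035 was above that of Ndrg1, at 156 ± 66.5 against 47.3 ± 22.2 in WT blastocysts (SD, n = 3). The library kit does not mark strand and all exon bases of Gm17035 lie inside Ndrg1 exons, so reads from Ndrg1 and from its antisense partner cannot be told apart. How the counting treated strand and overlapping genes is not given in the sources used here, and intervals cover counting error only.

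A second gene on the plus strand, Gm2895, has 137 of its 3194 exon bases inside exons of Ndrg1, at the 5′ end of Ndrg1. It had between 1 and 242 counts per embryo and a mean of 9.13 ± 6.15 CPM in WT blastocysts (SD, n = 3) against 0.308 ± 0.331 CPM in the morulae labelled Gabpb1 KO (n = 3). It was higher in blastocysts than in non-KO morulae of the Alyref cross by 4.35 on the log2 scale (SE 0.81, adjusted p = 0.0078, edgeR). Its log2 fold change between morulae labelled Gabpb1 KO and non-KO morulae of that cross was -3.53 (SE 0.86), given without a test because it overlaps the gene that chose the set. Of 10 genes in the table within 500 kb of Ndrg1, Gm2895 and Phf20l1 passed the filter. Phf20l1, 284.1 kb away, encodes a reader of histone and protein methylation, and its log2 fold change between the Alyref cross stages was 0.31 (SE 0.21, adjusted p = 0.335, edgeR).

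Ndrg3 was the most even member. It was at 73.4 and 79.7 CPM in Alyref KO morulae, at 68.6, 37.4 and 105 CPM in Alyref cross non-KO morulae, at 53.1, 49.4 and 59.9 CPM in morulae labelled Gabpb1 KO and at 48.3 and 65.8 CPM in Gabpb1 cross non-KO morulae. In blastocysts it was at 118, 150 and 77.3 CPM (Alyref cross), at 117, 75.3 and 76.7 CPM (Gabpb1 cross) and at 114, 87.4 and 84.2 CPM (WT). The lowest and the highest embryo were 37.4 and 150 CPM, and the lowest value of each blastocyst group was below the highest Alyref cross non-KO morula (105 CPM). By group mean the order was Alyref cross blastocysts (114.9 CPM), WT blastocysts (95.2), Gabpb1 cross blastocysts (89.7), Alyref KO morulae (76.6), Alyref cross non-KO morulae (70.4), Gabpb1 cross non-KO morulae (57.1) and morulae labelled Gabpb1 KO (54.1), all in CPM. Every pair of neighbours in this order overlapped. With ERCC scaling the order changed, and Gabpb1 cross non-KO morulae (90.2 CPM) came before Alyref KO morulae (87.6 CPM).

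Ndrg4 was low in every embryo, with 8 to 156 counts. It was at 3.43 and 3.80 CPM in Alyref KO morulae, at 1.47, 2.62 and 1.04 CPM in Alyref cross non-KO morulae, at 0.689, 1.11 and 4.19 CPM in the morulae labelled Gabpb1 KO and at 2.42 and 11.9 CPM in Gabpb1 cross non-KO morulae. In blastocysts it was at 3.03, 4.59 and 5.88 CPM (Alyref cross), at 4.53, 3.20 and 4.82 CPM (Gabpb1 cross) and at 7.77, 4.42 and 3.09 CPM (WT). The highest embryo was a single Gabpb1 cross non-KO morula at 11.9 CPM, and the other of that group was at 2.42 CPM, below every blastocyst. By group mean the order was Gabpb1 cross non-KO morulae (7.14 CPM), WT (5.09), Alyref cross (4.50) and Gabpb1 cross blastocysts (4.18), Alyref KO morulae (3.62), morulae labelled Gabpb1 KO (1.995, from 0.689 to 4.19) and Alyref cross non-KO morulae (1.71), and each pair of neighbours overlapped. With ERCC scaling the mean of Alyref KO morulae was 4.135 CPM, above that of Gabpb1 cross blastocysts.

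Ndrg2 had 0 to 109 counts and, over the 19 embryos, the lowest median FPKM of the 4 coding members (0.260). It was not the lowest in every morula. In the third morula labelled Gabpb1 KO it was at 0.758 FPKM and Ndrg1 at 0.148 FPKM. It was at 1.32 and 3.54 CPM in Alyref KO morulae, at 0.0543, 2.36 and 1.68 CPM in Alyref cross non-KO morulae, at 0.258, 0.926 and 2.62 CPM in morulae labelled Gabpb1 KO and at 7.76 and 0.304 CPM in Gabpb1 cross non-KO morulae. In blastocysts it was at 1.13, 0.434 and 0.474 CPM (Alyref cross) and at 1.48, 0.829 and 0.948 CPM (Gabpb1 cross), and the 3 WT blastocysts had 0 counts. The ranges of the 4 morula groups overlapped, and the embryo with 109 counts was the first Gabpb1 cross non-KO morula. By group mean the order was Gabpb1 cross non-KO (4.03 CPM), Alyref KO (2.43) and Alyref cross non-KO morulae (1.37), morulae labelled Gabpb1 KO (1.27), and Gabpb1 cross (1.09), Alyref cross (0.679) and WT blastocysts (0), and of the neighbours only the last pair did not overlap.

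**Figure D2:**
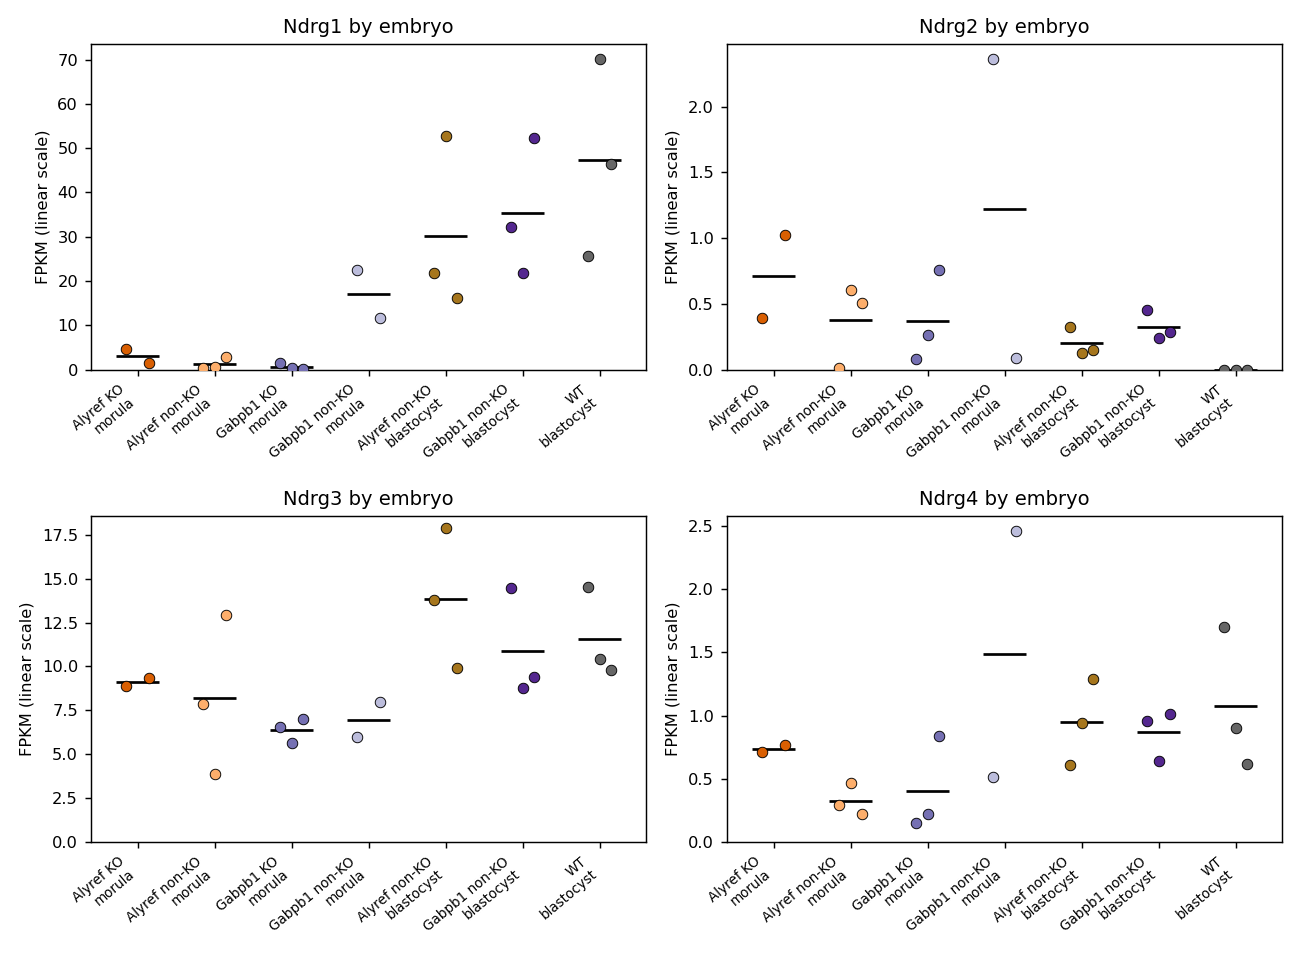
FPKM of Ndrg1, Ndrg2, Ndrg3 and Ndrg4 in each embryo, on linear axes that start at 0 and differ in range; each point is an embryo and each bar the group mean. Ndrg1 reaches 70.0 FPKM, Ndrg3 stays between 3.87 and 17.9 FPKM, and Ndrg2 and Ndrg4 stay under 2.5 FPKM.

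Per length, the main member of the family differed between groups. The FPKM of the 4 coding members were summed in each embryo, and Ndrg1 made up 59.6%, 73.6% and 58.9% of the sum in the Alyref cross blastocysts, 67.0%, 69.2% and 83.0% in the Gabpb1 cross blastocysts and 61.2%, 86.1% and 81.7% in WT blastocysts. In the Gabpb1 cross non-KO morulae its share was 71.9% and 52.6%. In the 8 other morulae Ndrg3 was the leading member with 60.9% to 92.1%, and Ndrg1 had 1.69% to 31.5%. The summed level of the family was 60.0 FPKM on average in WT blastocysts, 45.2 in Alyref cross blastocysts and 7.78 in the morulae labelled Gabpb1 KO.

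**Figure D3:**
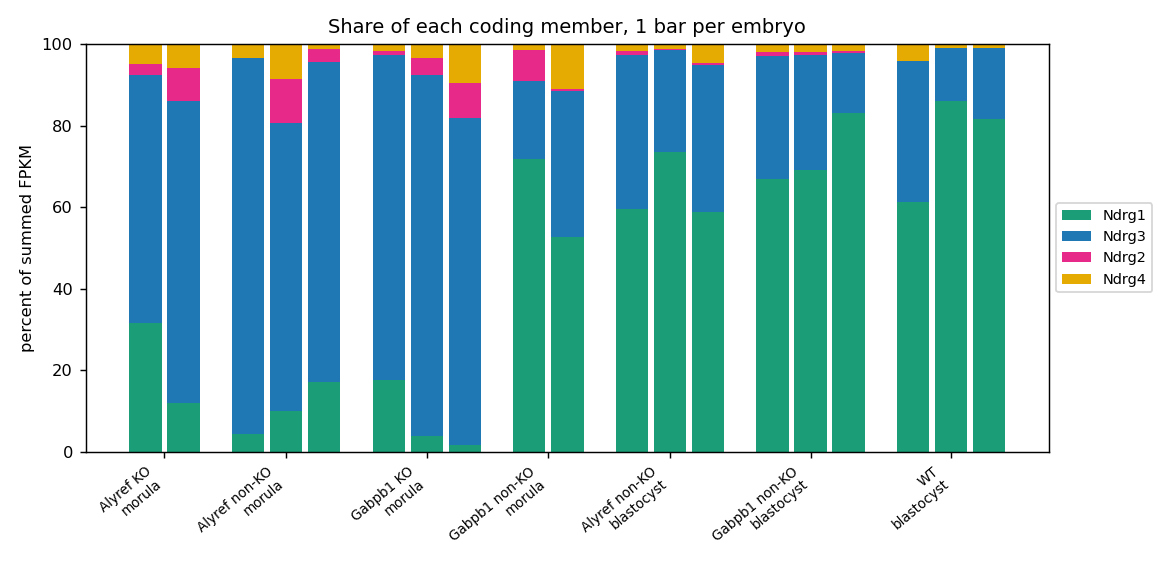
Percent of the summed FPKM of Ndrg1, Ndrg2, Ndrg3 and Ndrg4 that each member contributed, with 1 stacked bar per embryo from 0 to 100. Ndrg1 has the largest share in the 9 blastocysts and the 2 Gabpb1 cross non-KO morulae (52.6% to 86.1%), and Ndrg3 in the 8 other morulae.

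Within the Alyref cross, whose morulae and blastocysts took no part in choosing the set, non-KO blastocysts were compared with non-KO morulae to see how the family differs between stages at the same age. Ndrg1 and Gm17035 were higher in blastocysts, Ndrg1 at 146, 347 and 99.7 against 2.55, 4.13 and 17.9 CPM. The log2 fold change of Ndrg1 was 4.59 (SE 0.90, 24.1-fold, adjusted p = 0.0092) and that of Gm17035 was 4.59 (SE 0.91, adjusted p = 0.00937), both by edgeR's quasi-likelihood (QL) test with Benjamini-Hochberg (BH) adjustment over all genes tested. Of the 5 genes, 2 were called higher and none lower, and these 2 share their exon bases. Over all genes tested 13% were called, 5.62% as higher in blastocysts, and 74 of the other 18405 genes tested had a log2 fold change as high as that of Ndrg1 or higher. Ndrg4 did not overlap between the stages either. Its log2 fold change was 1.40 (SE 0.66, adjusted p = 0.159, edgeR), and 19.6% of all genes tested did not overlap in that direction. Ndrg3 gave 0.71 (SE 0.32, adjusted p = 0.147) and Ndrg2 -0.94 (SE 1.13, adjusted p = 0.601, both edgeR), each with overlapping embryos.

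Under 3 alternatives Ndrg1 kept its direction and missed the threshold. Its log2 fold change was 3.99 when scaled to the ERCC spike-in (adjusted p = 0.0643), 4.62 with only both groups in the fit (adjusted p = 0.0548) and 4.30 once the second non-KO morula was left out (adjusted p = 0.0502, all edgeR). ERCC scaling moved the median log2 fold change of all genes from -0.04 to -0.34 in this comparison and the split of called genes from 1035 higher and 1367 lower to 31 higher and 321 lower. Of the alternatives run, Ndrg3 passed the threshold in 1, without the third non-KO morula (1.12, adjusted p = 0.0213, edgeR).

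Trophectoderm markers moved with this difference. Their summed level over 14 genes was 721 to 2578 CPM in the Alyref cross non-KO morulae and 5740 to 9157 CPM in the blastocysts, and 4 of 14 were called higher and 1 lower (median log2 fold change 2.37, against -0.04 for all genes tested). Krt7 (4.60, SE 0.83, adjusted p = 0.0078), Krt18 (2.80, SE 0.77, adjusted p = 0.0297) and Krt8 (2.32, SE 0.60, adjusted p = 0.0236), keratins of simple epithelia, rose in blastocysts (edgeR). Whether Ndrg1 differs within trophectoderm cells or with the number of such cells was not tested, and in whole embryos fewer cells of a type and less RNA per cell cannot be told apart.

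Genes around the NDRG proteins were followed in the same comparison, in which 13% of all genes tested were called. Of 12 tested kinases and kinase partners that act on NDRG proteins or upstream of them, Mlst8, a subunit of the mTOR complexes, was lower (-1.14, SE 0.25, adjusted p = 0.0134). Of 12 tested genes of the MYC network, Mycn (3.30, SE 0.93, adjusted p = 0.0324) and Mlxip, a partner of Mlx (1.82, SE 0.53, adjusted p = 0.0366), were higher and none was lower. Of 8 tested genes of the hypoxia-inducible factor (HIF) pathway, Vhl, which targets HIF alpha subunits for degradation, was lower (-1.31, SE 0.31, adjusted p = 0.0177, all edgeR).

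Of 19 tested HIF target genes other than Ndrg1, 2 were higher and 2 lower (median log2 fold change -0.74). The glycolytic enzyme gene Pgk1 was higher (2.31, SE 0.43, adjusted p = 0.0078), and Bnip3l, a mitophagy receptor gene (-1.43, SE 0.35, adjusted p = 0.0203), and P4ha1, for a collagen prolyl hydroxylase (-1.23, SE 0.30, adjusted p = 0.0203), were lower. Of 11 tested genes of endosome recycling and receptor traffic, Rab11a, a GTPase of recycling endosomes, was higher (0.87, SE 0.21, adjusted p = 0.0191), and Tfrc, the transferrin receptor (-3.13, SE 0.62, adjusted p = 0.00938), and Rab5a, a GTPase of early endosomes (-1.58, SE 0.42, adjusted p = 0.0267), were lower (all edgeR). Among inner cell mass markers, Nanog (-1.95, SE 0.25, adjusted p = 0.00432), Klf2 (-1.89, SE 0.49, adjusted p = 0.0248) and Pou5f1 (-0.80, SE 0.24, adjusted p = 0.0421), factors of pluripotency, were the 3 of 14 epiblast markers called, all lower in blastocysts, and Lama1, a laminin subunit gene, was the 1 of 12 primitive endoderm markers called (4.30, SE 1.24, adjusted p = 0.0349, all edgeR). Of the 14 epiblast markers, 10 had a negative and 4 a positive log2 fold change. Their summed level was 3398 to 4317 CPM in the non-KO morulae and 3767 to 4887 CPM in the blastocysts. Of the 12 primitive endoderm markers, 7 had a positive and 5 a negative log2 fold change.

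Alyref KO morulae were compared with the non-KO morulae of the same cross, which also serve as the reference of the stage comparison. None of the 5 genes was called, against 0.228% of all genes tested. Ndrg1 was at 29.8 and 10.1 CPM in KO against 2.55, 4.13 and 17.9 CPM in non-KO morulae, and the embryos overlapped. Its log2 fold change was 1.27 (SE 0.89, adjusted p = 0.623, edgeR). Gm17035 gave 1.10 (SE 0.95, adjusted p = 0.706), Ndrg2 0.87 (SE 1.21, adjusted p = 0.84) and Ndrg3 0.12 (SE 0.36, adjusted p = 0.941, all edgeR), and these overlapped as well.

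Ndrg4 was at 3.43 and 3.80 CPM in the Alyref KO morulae, above 1.47, 2.62 and 1.04 CPM in the non-KO morulae. Its log2 fold change was 1.09 (SE 0.72, adjusted p = 0.595, edgeR). It was the 1 gene of the 5 without overlap, and 12.5% of all genes tested were without overlap in that direction. With each embryo left out in turn, the log2 fold change of Ndrg1 ranged from 0.30 (without the first KO morula) to 2.58 (without the third non-KO morula). Of the kinase, MYC, HIF and endosome lists no gene was called in this comparison, and of 14 trophectoderm markers none (median -0.13). Among epiblast markers Gdf3, a TGF-beta family ligand, was lower (-3.67, SE 0.65, adjusted p = 0.037, edgeR).

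Blastocysts of the 3 crosses were compared with each other, since non-KO embryos may carry 1 deleted allele. None of the 5 genes was called in any of these 3 comparisons, and 0% of all genes tested were called, with 541, 1123 and 646 genes at an unadjusted p under 0.05. DESeq2 called 15, 42 and 16 genes. Against WT blastocysts the log2 fold change of Ndrg1 was -0.65 in the Alyref cross (SE 0.77, adjusted p = 1) and -0.44 in the Gabpb1 cross (SE 0.77, adjusted p = 0.964), and between the crosses it was 0.21 (SE 0.77, adjusted p = 1, all edgeR). The embryos of each pair of groups overlapped, and the SE of 0.77 leaves room for differences in either direction. Gm17035 gave -0.73, -0.46 and 0.27, Ndrg3 0.27, -0.09 and -0.36, and Ndrg4 -0.19, -0.28 and -0.10 in the same order, with overlap in each case.

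Ndrg2 was the exception in overlap, because none of the 3 WT blastocysts had a count. Against a floor of 3 counts in each WT library, its mean was 3.43-fold above that floor in Alyref cross blastocysts and 5.48-fold above it in Gabpb1 cross blastocysts. The floor covers counting error at 0 in the WT libraries only, and not the spread between embryos. The edgeR test gave an adjusted p of 1 and of 0.579 for these comparisons. DESeq2 gave an adjusted p of 0.214 and of 0.0457, so the call for the Gabpb1 cross depends on the tool. The other 6 blastocysts had between 5 and 35 counts of Ndrg2, and 6% and 6.51% of all genes tested were higher without overlap in these comparisons. All 12 tested primitive endoderm markers had a negative log2 fold change in both comparisons (median -1.68 for the Alyref cross and -1.17 for the Gabpb1 cross), none was called, and their part in the values of Ndrg2 was not tested.

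In the Gabpb1 cross, morulae labelled KO had 9.21, 1.67 and 0.993 CPM of Ndrg1 and non-KO morulae had 144 and 75.8 CPM. This is the difference by which the set was chosen. The log2 fold change was -4.80 (SE 0.96, 27.9-fold lower) for Ndrg1 and -4.84 (SE 1.00) for Gm17035, with no overlap for either, and 16.4% of all genes tested were lower without overlap. Over the other 18405 genes tested 1.64% were called, 1.29% as lower in the morulae labelled KO, and 77 had a log2 fold change as low as that of Ndrg1 or lower. Without the first KO morula, which had 9.21 CPM, the value for Ndrg1 was -6.38.

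The other members overlapped between these groups. Ndrg3 was at 53.1, 49.4 and 59.9 CPM against 48.3 and 65.8 CPM, a log2 fold change of -0.08 (SE 0.36; -0.52 with ERCC scaling). Ndrg2 gave -1.65 (SE 1.20) and Ndrg4 -1.82 (SE 0.71), and each of these values rests on 1 non-KO morula. Without the first of them, which held 7.76 CPM of Ndrg2, the value of Ndrg2 was 2.04. Without the second, which held 11.9 CPM of Ndrg4, the value of Ndrg4 was -0.26.

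Trophectoderm markers were also lower in these embryos as a sum, at 3341, 413 and 1279 CPM in the morulae labelled KO against 5466 and 3422 CPM in the non-KO morulae. Of the 14 markers 12 had a negative and 2 a positive log2 fold change, with a median of -1.48 against 0.06 for all genes tested, and none was called. The KO morula with the highest marker sum (3341 CPM) had 9.21 CPM of Ndrg1, and the non-KO morula with the lowest (3422 CPM) had 75.8 CPM. These are single embryos of the comparison that chose the set, and nearness in the sum need not hold for each marker. The part of the trophectoderm markers in the difference of Ndrg1 was not tested.

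Of the lists around the NDRG proteins, the single gene called in this comparison was Mlx, which encodes a partner of MLXIP and of MXD proteins in the MYC network. It was lower in the morulae labelled KO (-1.99, SE 0.26, adjusted p = 0.00193, edgeR). None of the tested kinase, HIF pathway, HIF target and endosome genes was called. Of the GABP subunits, Gabpa gave 1.14 (SE 0.29, adjusted p = 0.0518), Gabpb1 0.88 (SE 0.39, adjusted p = 0.243) and Gabpb2 0.52 (SE 0.28, adjusted p = 0.332, all edgeR). Without the 5 genes, the calls in this comparison went from 64 higher and 237 lower to 0 and 26 with ERCC scaling, and to 32 and 319 with no filter.

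**Figure D4:**
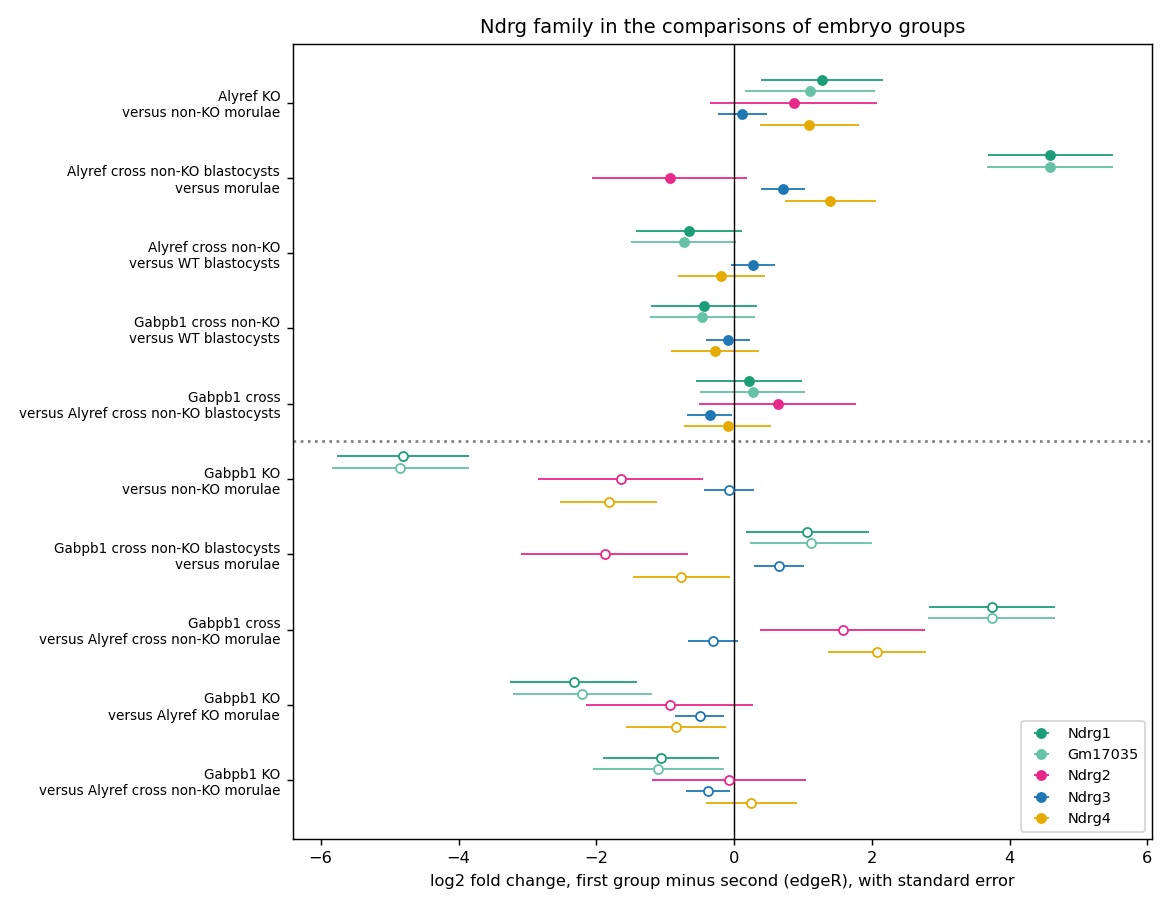
Log2 fold change (edgeR) of the 5 genes in the 10 comparisons of groups, first group minus second, with bars of 1 SE; filled points above the dotted line are comparisons with a test and open points below it are described only. Ndrg1 and Gm17035 lie at 4.59 between the stages of the Alyref cross and at -4.80 and -4.84 between the Gabpb1 cross morulae, and Ndrg3 lies between -0.50 and 0.71 throughout. Ndrg2 is left out where WT blastocysts have no count.

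In Ndrg1 and Gm17035 the 2 Gabpb1 cross non-KO morulae also stood apart from morulae of the other cross, which share the label of the stage but not the fertilisation. Against the Alyref cross non-KO morulae the log2 fold change of Ndrg1 was 3.74 (SE 0.91), of Gm17035 3.74 (SE 0.92), of Ndrg3 -0.30 (SE 0.36), of Ndrg2 1.58 (SE 1.19) and of Ndrg4 2.07 (SE 0.71). The embryos overlapped for Ndrg2, Ndrg3 and Ndrg4, and the values of Ndrg2 and Ndrg4 each rest on 1 Gabpb1 cross morula. Without the first of these morulae the value of Ndrg2 was -2.12, and without the second that of Ndrg4 was 0.51. Ndrg1 and Gm17035 did not overlap in this comparison, 17.9% of all genes tested were higher without overlap, and 1.85% of the other genes tested were called. The trophectoderm marker Krt7 was also higher in these Gabpb1 cross morulae (3.76, SE 0.84, adjusted p = 0.0392), as was Pgk1 (2.11, SE 0.45, adjusted p = 0.0361), while Nanog was lower (-1.38, SE 0.28, adjusted p = 0.0334, all edgeR).

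Set against the same Alyref cross non-KO morulae, a comparison added after the levels had been seen, the morulae labelled Gabpb1 KO had a log2 fold change of Ndrg1 of -1.06 (SE 0.84), with overlapping embryos. Leaving out the third morula of the Alyref cross gave 0.25, and leaving out the first KO morula gave -2.64. All 5 genes overlapped in that comparison, in which 2.57% of the other genes tested were called. Against the Alyref KO morulae the morulae labelled Gabpb1 KO had a value of -2.33 for Ndrg1 (SE 0.92; -3.91 without the first KO morula) and of -0.50 for Ndrg3 (SE 0.36), the 2 genes without overlap. Of all genes tested 17.2% were lower without overlap, and 4.57% of the other genes tested were called. These comparisons share embryos with one another, so their values are not independent of each other.

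Between blastocysts and non-KO morulae of the Gabpb1 cross the log2 fold change of Ndrg1 was 1.06 (SE 0.89), of Gm17035 1.11 (SE 0.88) and of Ndrg3 0.65 (SE 0.36). Ndrg2 (-1.88, SE 1.21) and Ndrg4 (-0.77, SE 0.70) went the other way, with overlapping embryos. Without the first morula the value of Ndrg2 was 1.81, and without the second that of Ndrg4 was 0.79. Ndrg1 was at 205, 147 and 335 CPM in blastocysts against 144 and 75.8 CPM in morulae, and the lowest blastocyst was just above the highest morula. Ndrg1, Gm17035 and Ndrg3 did not overlap there, 11.4% of all genes tested were higher without overlap, and 0% of the other genes tested were called, with 1237 at an unadjusted p under 0.05 and 57 called by DESeq2. With ERCC scaling the value was 0.099 for Ndrg1, 0.15 for Gm17035 and -0.15 for Ndrg3, whose sign turned, and the median of all genes moved from 0.02 to -0.86. The stage difference of Ndrg1 was therefore 4.59 in the Alyref cross and 1.06 in the Gabpb1 cross, and the difference between these values was not tested.

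**Figure D5:**
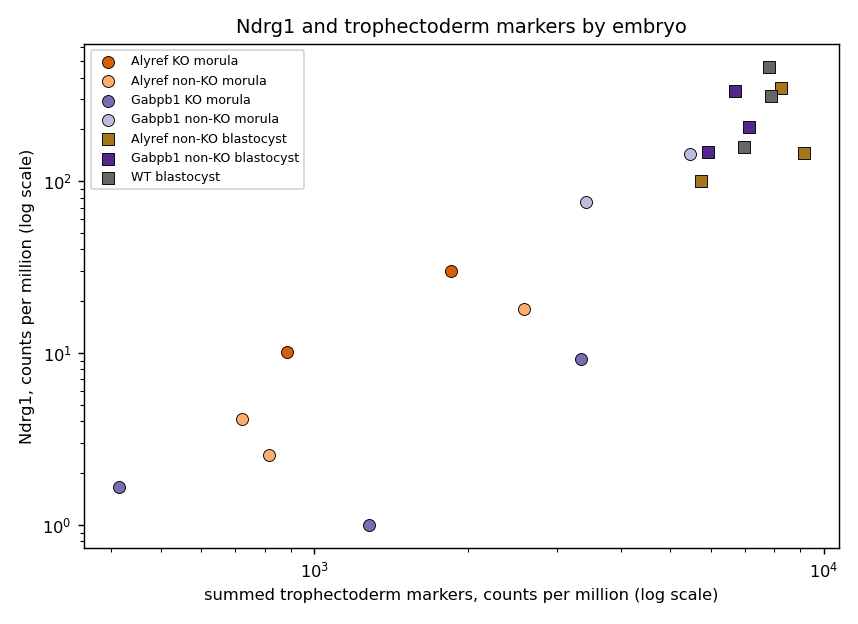
CPM of Ndrg1 against the summed CPM of 14 trophectoderm markers in each of 19 embryos, both on log scales; circles are morulae and squares are blastocysts. Blastocysts lie at 5740 CPM of marker sum or above and morulae at 5466 CPM or below.

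Genes with a pattern like that of Ndrg1 were sought over the 19 embryos among 11423 tested genes with a mean of at least 5 CPM, by Pearson's coefficient of log2(CPM + 1). Gm17035 (0.995), which shares exon bases with Ndrg1, was left out. The 5 highest of the other genes were Coro1b (0.968), which encodes an actin regulator of the coronin family, Gm20441 (0.960), Necap2 (0.958), which encodes a protein of clathrin-coated vesicles, Gm16559 (0.957), annotated as antisense RNA, and Copg2 (0.956), a subunit of the COPI vesicle coat. In all, 111 genes had a coefficient of 0.9 or more. The 19 embryos share their stages and crosses, so these coefficients describe a common division of the embryos and carry no test.

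The levels of these genes in the groups show the same division. Coro1b was at a mean of 40.4 CPM in the morulae labelled Gabpb1 KO, 45.1 in Alyref cross non-KO morulae, 97.1 in Gabpb1 cross non-KO morulae and 158 in WT blastocysts. Gm16559 went from 7.80 CPM and 1.21 CPM in the first 2 of these groups to 92.7 and 146 CPM in the last. Within the 9 blastocysts the coefficient with Ndrg1 was 0.862 for Coro1b and 0.922 for Gm16559, but 0.256 for Gm20441 and 0.474 for Copg2. With Spearman's rho in place of Pearson's coefficient, 1 of the 5 genes was still among the 5 highest. Of the family, Ndrg3 had a coefficient of 0.597 with Ndrg1, Ndrg4 of 0.513 and Ndrg2 of -0.262.

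Promoter windows (RefSeq, GRCm38.p6; 250 bases before to 50 after a start) were at hand for Ndrg2, Ndrg3 and Ndrg4, with 9 windows in all. The letters CCGGAAGT, a form of the site bound by GABP, were searched on both strands and were in 0 of the 9 windows, against 3.89% of 32851 windows of all genes. The E-box CACGTG, a form bound by MYC and by MLX with its partners, was in 1 window of Ndrg4 (chr8:95677513-95677812), against 7.15% of all windows. The hypoxia response core was searched in 2 forms. The form GCGTG was in 5 of the 9 windows, of Ndrg2 (2 windows that overlap each other), Ndrg3 and Ndrg4 (2 windows), against 32.4% of all windows. The form ACGTG was in 1 window, against 19.6%, and its match there lies inside the E-box of Ndrg4. These matches are a description of letters in the windows.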

How the data were processed

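The deposited table has 19 columns, 1 for each embryo. It is titled as FPKM, but the values the authors deposited are raw counts per gene, that is, whole numbers whose totals differ between columns. Per the submitters' processing notes, Trimmomatic, Trim Galore, cutadapt, STAR and featureCounts were used with build mm10. Versions, strand setting and the handling of overlapping genes are not given in the sources used here. Per the labels' protocols, cDNA was amplified over 16 cycles, ERCC RNA was added after lysis, and paired reads of 50 and 25 bases were made with Nextera XT, a tagmentation kit that does not mark strand.

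Genes with an FPKM of at least 1 in at least 2 embryos were tested (18410 of 53379; 92 ERCC rows left out). FPKM came from these counts and the table's exon lengths. The fit in edgeR 4.0.16 (R 4.3.3) had TMM scaling, 1 mean for each of the 7 groups, all 19 embryos and the QL F test, and adjusted p-values (BH) cover all genes tested. A gene is called at an adjusted p under 0.05. The SE was taken as the log2 fold change over the root of F. CPM use the TMM-scaled gene total. The 5 comparisons with embryos of the Gabpb1 cross morulae carry no test on the 5 genes, and their background leaves these out. The spread is that between single embryos, and whether embryos of a cross shared parents is not stated. The method was tested on simulated counts. The members and lists were chosen with earlier results of these data known.

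Named genes are the 5 genes, Alyref, the GABP subunits, at most the 3 called genes with the largest change per list and comparison, the 5 genes most like Ndrg1 and the tested genes nearest to it. Alternatives were DESeq2 1.42.0 (test, and its size factors in edgeR), ERCC scaling, TMM over all rows (added), no filter, a filter of 5 embryos, only the compared groups, a replicate block, summed counts of Ndrg1 and Gm17035, and each embryo left out. Sequences come from GENCODE M21 transcripts; RefSeq promoter windows matched 3 of the 5 genes. The result for 1 gene of these lists is not reported here.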

Additional observations from a re-analysis of the deposited data

How the results depend on the processing

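Single embryos in groups of 2 or 3 limit every comparison, and 1 embryo often decides a count of calls. Ndrg2 and Ndrg4 have few counts, and with a filter of 5 embryos neither was tested. The causes of the shifts below were not tested. A fit with only both groups has fewer embryos to estimate the spread, and its part in the shifts was not tested either.

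The number of genes called changed with the tool, the scaling, the groups fitted and single embryos. DESeq2 called 502 genes (Alyref KO against non-KO morulae, 42 by edgeR), 3762 (Alyref cross stages, 2402), 15, 42 and 16 (blastocysts of the Alyref cross against WT, of the Gabpb1 cross against WT, and of both crosses, 0 each), 1282 (Gabpb1 KO against non-KO morulae, 301), 57 (Gabpb1 cross stages, 0), 1706 (non-KO morulae of both crosses, 341), 1709 (Gabpb1 KO against Alyref KO, 841) and 1196 (Gabpb1 KO against Alyref cross non-KO morulae, 473). ERCC scaling gave 0, 352, 26, 2, 9 and 9 calls for Alyref KO, Alyref cross stages, Gabpb1 KO, non-KO morulae of both crosses, Gabpb1 KO against Alyref KO and Gabpb1 KO against Alyref cross non-KO morulae. With only the compared groups in the fit these were 0, 24, 0, 0, 0 and 0. Without a filter 13 genes were called for Alyref KO, 1 each for Gabpb1 cross against WT blastocysts and for the blastocysts of both crosses, and 521 for Gabpb1 KO against Alyref KO. With the replicate block 8 genes were called for Alyref KO and 288 for Gabpb1 KO against Alyref cross non-KO morulae.

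Leaving out each embryo in turn gave 0 to 128 calls for Alyref KO, 346 to 4560 for the Alyref cross stages, 0 to 1 for each comparison with WT blastocysts, 0 in each case for the blastocysts of both crosses, 48 to 964 for Gabpb1 KO, 0 to 6 for the Gabpb1 cross stages, 0 to 2433 for non-KO morulae of both crosses, 148 to 926 for Gabpb1 KO against Alyref KO and 127 to 1228 for Gabpb1 KO against Alyref cross non-KO morulae.

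Between the Alyref cross stages Ndrg1 kept its direction under every alternative, with a log2 fold change of 3.90 to 5.90 when each embryo was left out. It missed the threshold with ERCC scaling (3.99, adjusted p = 0.0643), with only both groups (4.62, adjusted p = 0.0548) and without the second non-KO morula (4.30, adjusted p = 0.0502), and Gm17035 missed it with ERCC scaling (4.04, adjusted p = 0.0744) and with only both groups (4.61, adjusted p = 0.0564, all edgeR). Summing the counts of Ndrg1 and Gm17035 gave 4.59. Replicate numbers of different groups did not pair embryos: over 25 pairs the correlation of deviations from the group means was -0.202 to 0.263. With the number as a replicate block Ndrg1 was at 4.75 (adjusted p = 0.0148, edgeR), and no call among the 5 genes changed.

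In the other comparisons Ndrg1 ranged, with each embryo left out, from -6.38 to -4.27 (Gabpb1 KO), from 3.21 to 5.05 (non-KO morulae of both crosses), from -3.91 to -1.38 (Gabpb1 KO against Alyref KO), from -2.64 to 0.25 (Gabpb1 KO against Alyref cross non-KO morulae) and from -0.17 to 0.90 (blastocysts of both crosses), where ERCC scaling gave -0.0013. In the Gabpb1 cross stages ERCC scaling gave 0.099 for Ndrg1, 0.15 for Gm17035 and -0.15 for Ndrg3. Values of other members changed sign as well, and not only small ones. With an embryo left out, Ndrg2 ranged from -2.78 to 2.04 for Gabpb1 KO. For non-KO morulae of both crosses it ranged from -2.12 to 2.52. In the Gabpb1 cross stages Ndrg2 ranged from -2.82 to 1.81 and Ndrg4 from -1.50 to 0.79. Ndrg3 was -0.12 for Alyref KO with ERCC scaling. With an embryo left out the ranges were -0.17 to 0.53 for Ndrg3 and -0.0552 to 1.52 for Ndrg2 (Alyref KO), -0.44 to 0.25 for Ndrg4 (Alyref cross against WT blastocysts), -0.32 to 0.0641 for Ndrg3 and -0.54 to 0.16 for Ndrg4 (Gabpb1 cross against WT blastocysts), and -0.32 to 0.14 for Ndrg4 and -0.0868 to 0.89 for Gm17035 (blastocysts of both crosses).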
